A study of Rattus norvegicus with 24 samples.

Results

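The genes described here are 6 regulators of apoptosis, Cflar, Bcl2l1, Xiap, Diablo, Aifm1 and Phlda3, found on the array by their symbols in the platform annotation. They are 6 of 13337 named genes and have 7 of the 22523 probes, 2 of them for Bcl2l1. RNA was measured on Illumina rat BeadChips in RBEC4, a cell line of rat brain endothelium that the labels describe as blood-brain barrier cells. Cultures at 95% confluence were profiled after 18 h, and those of the particle groups received nanosilver at 1.0 ppm. The groups were PVP10 (particles of 10 nm coated with polyvinylpyrrolidone, a synthetic polymer), PVP75 (that coating at 75 nm), citrate10 and citrate75 (citrate-coated particles of 10 and 75 nm), each with 5 arrays, and control, with 4 arrays. No particle size or dose is given for control. All 24 arrays come from the same cell line. Replicates are numbered in the labels, which do not say whether each was a culture of its own, so the p-values rest on a spread between arrays that may be technical.

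Apoptosis is started either by death receptors at the cell surface or from the mitochondria, and both routes end in caspases, the proteases that take the cell apart. Cflar encodes c-FLIP, a caspase-like protein without protease activity that competes with the initiator caspase at death receptors. Bcl2l1 encodes BCL-XL, which keeps the outer mitochondrial membrane closed, and a shorter splice form of the gene promotes death. Xiap encodes an inhibitor that binds active caspases, and Diablo encodes SMAC, which leaves the mitochondria and displaces such inhibitors. Aifm1 encodes a mitochondrial flavoprotein needed for the assembly of the respiratory chain that moves to the nucleus in caspase-independent death. Phlda3 encodes a small protein with a pleckstrin homology domain, known from human and mouse cells as a p53 target that competes with the kinase AKT for membrane lipid.

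Cflar and Phlda3 were the members that differed between PVP10 and control, so the 250 bases before their transcription starts are shown, from RefSeq's annotation of the rat assembly GRCr8. The Cflar window is chr9:67679299-67679548 and the Phlda3 window is chr13:49744753-49745002, both on the plus strand. Capitals mark the GC box GGGCGG, found on either strand.
Cflar: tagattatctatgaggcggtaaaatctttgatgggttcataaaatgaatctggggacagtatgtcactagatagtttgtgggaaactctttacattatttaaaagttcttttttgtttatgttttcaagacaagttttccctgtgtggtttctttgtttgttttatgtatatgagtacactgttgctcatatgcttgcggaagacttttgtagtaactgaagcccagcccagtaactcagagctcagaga
Phlda3: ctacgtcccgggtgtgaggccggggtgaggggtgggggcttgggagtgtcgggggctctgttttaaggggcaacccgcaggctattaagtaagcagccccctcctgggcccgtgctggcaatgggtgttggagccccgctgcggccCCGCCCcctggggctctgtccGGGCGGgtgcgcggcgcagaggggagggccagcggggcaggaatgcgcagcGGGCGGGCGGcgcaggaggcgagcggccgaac
These windows differ in composition. GC made up 36% of the Cflar window, which held 2 CpG dinucleotides, and 73.6% of the Phlda3 window, which held 23. The medians over 33469 rat windows of that length were 51.2% and 5. Phlda3 had 4 GC boxes, of which 2 overlap, at 104, 83, 32 and 28 bases before the start, and Cflar had 0, where 30.5% of all such windows held at least 1. The NF-kappaB core (GGG, any 5 bases, then CC) occurred 3 times in the Phlda3 window and 0 times in that of Cflar, and 42.3% of all windows held it. The antioxidant response core TGACNNNGC, the heat shock core GAANNTTC, the metal response core TGCNCNC and TATAAA were searched on both strands. They occurred in neither window, against 10.1%, 7.23%, 43.4% and 12.9% of all windows. A match is a run of letters and not a measured binding site, and the lack of one says only that the letters are not in this window.

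A probe counted as detected on an array when its detection p, which sets its signal against the negative control beads, was under 0.01. The 2774 probes detected on at least 4 arrays were tested, and all 6 genes passed, through 6 of their 7 probes. Cflar, Phlda3, Aifm1 and Bcl2l1 were detected on 24 of 24 arrays. Diablo was detected on 7 of 24 and Xiap on 5 of 24, so both lay at the edge of the background in every group. The second Bcl2l1 probe, which the annotation ties to another RefSeq transcript, was detected on 0 of 24 arrays and was not tested. Which splice form each Bcl2l1 probe reads could not be checked. Between 2128 and 2576 probes were detected per array. The arrays lay on 2 BeadChips that both held all 5 groups, unevenly, with 1 control array on chip 1 and 3 on chip 2, and the chip was a term of the model. The number of arrays limits the precision. Probes differ in brightness, so levels are compared only within a gene.

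Cflar and Phlda3 were both lower in cells exposed to PVP10 than in control cells, each by a similar amount, while the other 4 genes did not pass the test. The normalised log2 intensity of Cflar was 8.71, 8.73, 8.50, 8.66 and 8.73 on the PVP10 arrays, against 9.14, 9.30, 9.27 and 9.20 on the control arrays. Every PVP10 array lay below every control array. The log2 fold change was -0.57 with a standard error of 0.0824 (adjusted p = 2.05e-06, limma with Benjamini-Hochberg adjustment over the 2774 probes), a level change of -32.4%. Its 95% confidence interval ran from -0.73 to -0.40. The deposited signals, before any correction, were already apart, at 407 to 542 units in PVP10 and 645 to 720 in control. On chip 2 alone the log2 fold change was -0.591, and on chip 1 alone it was -0.545 and not called (adjusted p = 0.0622, limma). In RNA from whole cultures, fewer cells of a kind and less RNA per cell cannot be told apart.

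Phlda3 had log2 levels of 7.71, 7.70, 7.96, 7.996 and 7.87 on the PVP10 arrays and 8.52, 8.36, 8.53 and 8.23 on the control arrays. These groups did not overlap either. The log2 fold change was -0.58 with a standard error of 0.107 (adjusted p = 6.3e-05, limma), a level change of -32.9%, and the interval ran from -0.79 to -0.36. Within the chips the values were -0.743 on chip 1 and -0.482 on chip 2. The 2 genes that fell have opposite textbook roles in survival, since c-FLIP restrains death receptor signalling and PHLDA3 restrains AKT.

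PVP10 changed a large share of the measured transcripts, and these calls stand against that background. In PVP10 against control 41.5% of the 2774 probes were called at an adjusted p under 0.05, with 20.1% called higher and 21.4% called lower. Of the 6 regulators 2 (33.3%) were called, both lower, a share near that of all probes. In size, 8.76% of probes had a lower fold change than Cflar and 8.33% a lower one than Phlda3. Groups without overlap occurred for 34.9% of probes.

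**Figure D1:**
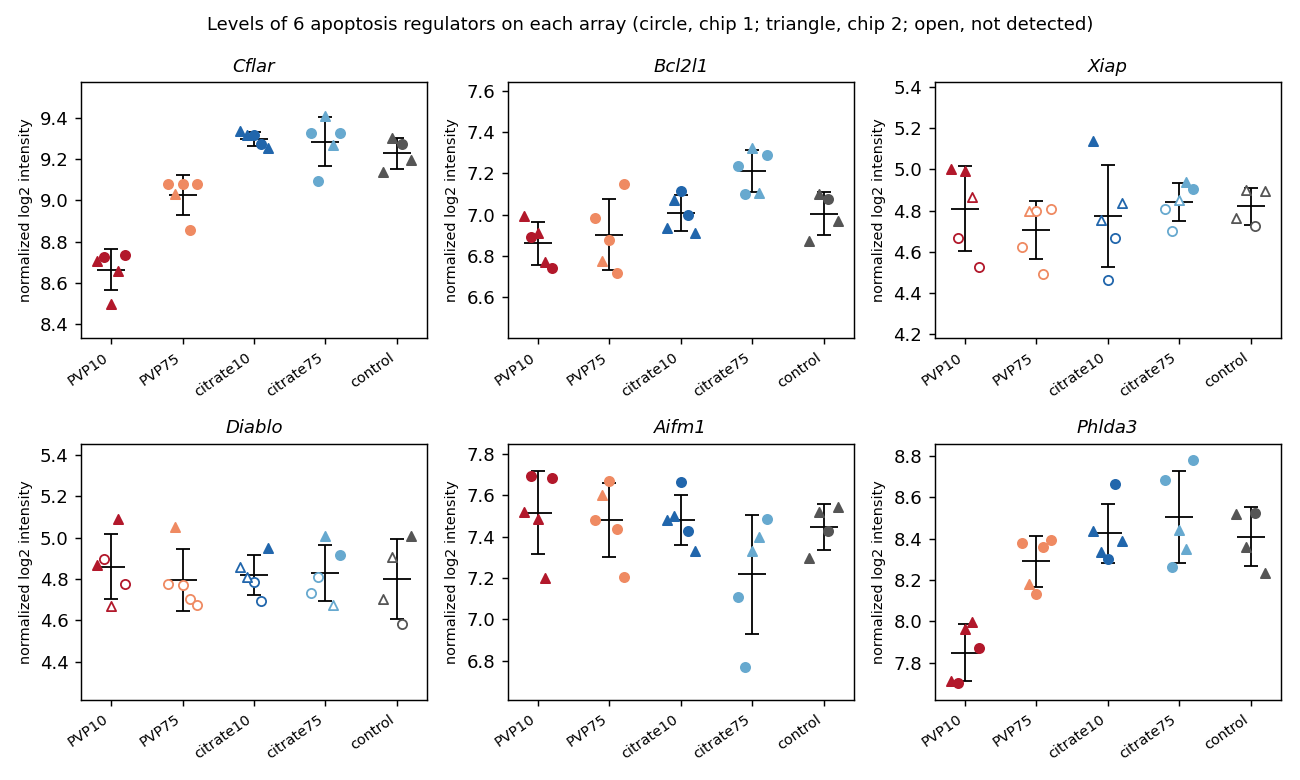
Normalised log2 intensity of the 6 genes on each array (circles for chip 1, triangles for chip 2, open where not detected) with the group mean and SD (bars), for PVP10, PVP75, citrate10, citrate75 and control (n = 5, 5, 5, 5 and 4). The PVP10 arrays lie below all control arrays for Cflar and Phlda3, while Xiap and Diablo stay near background in every group.

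The mitochondrial members and the caspase inhibitor did not pass the test in PVP10. Bcl2l1 had log2 levels of 6.99, 6.89, 6.91, 6.77 and 6.74 in PVP10 and 6.87, 7.10, 7.08 and 6.97 in control, with overlap. The log2 fold change of -0.15 had an interval from -0.34 to 0.04 (adjusted p = 0.223, limma), which does not reach the value of Cflar. Aifm1 had 7.52, 7.69, 7.48, 7.20 and 7.69 in PVP10 and 7.30, 7.52, 7.43 and 7.54 in control, also with overlap. The difference was 0.07 on the log2 scale, with an interval from -0.19 to 0.33 (adjusted p = 0.734, limma). Xiap was detected on 2 of 5 PVP10 arrays and 0 of 4 control arrays. Its levels ran from 4.46 to 5.14 over the whole series, so control has only a bound and no fold is given. Diablo, detected on 2 of 5 PVP10 arrays and 1 of 4 control arrays, had a log2 fold change of 0.08 (adjusted p = 0.58, limma). For Xiap and Diablo a modest difference was not detectable this close to background.

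Some marker genes of cell types differed in the same comparison. Of 18 endothelial markers on the array, 13 were detected on 0 arrays, the defining Cdh5, Vwf and Tek among them, and 3 were tested, Tie1, Tjp1 and Thbd. Genes that most cells use, such as Cycs, Vdac1 and Dad1, were also detected on 0 arrays, so the lack of a marker says little about the cell type here. The summed linear intensity of the 3 tested endothelial markers was 791 to 1080 in PVP10 and 1040 to 1220 in control, with Tjp1 called lower (-0.36 on the log2 scale, adjusted p = 0.00292, limma), Thbd called lower (adjusted p = 0.0231) and Tie1 not called (adjusted p = 0.588). Of 6 astrocyte markers only the glutamate transporter Slc1a2 was tested, and its intensity was 442 to 1180 in PVP10 and 38.2 to 43.8 in control, while the other 5, Gfap and Aqp4 among them, were detected on 0 arrays. Summed neuronal markers (3 of 8 tested) were 85.6 to 110 in PVP10 and 91.8 to 106 in control, with Nefm called higher (0.25, adjusted p = 0.0463, limma), Gad2 called lower (adjusted p = 0.00743) and Rbfox3 not called (adjusted p = 0.742). The markers of pericytes, microglia, oligodendrocytes and fibroblasts on the array were detected on 0 arrays. The part of these differences in the Cflar and Phlda3 results was not tested.

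The larger PVP-coated particles gave 0 calls among the 6 genes against control (limma), where 5.3% of probes were called (2.56% higher and 2.74% lower), and Cflar was the 1 of 6 with an unadjusted p under 0.05, as had 513 of 2774 probes. Cflar had log2 levels of 9.08, 9.03, 9.08, 8.86 and 9.08 in PVP75, each below the control values of 9.14 to 9.30. The log2 fold change was -0.21 with an interval from -0.39 to -0.03 (adjusted p = 0.176, limma). Groups without overlap occurred for 9.44% of probes here. The deposited Cflar signals, before correction, did overlap, at 451 to 862 in PVP75 and 645 to 720 in control. Phlda3 had 8.38, 8.18, 8.13, 8.36 and 8.39 in PVP75, which overlap with 8.23 to 8.53 in control, and its log2 fold change was -0.17 (adjusted p = 0.468, limma). Bcl2l1 had a log2 fold change of -0.12 (adjusted p = 0.547) and Aifm1 one of 0.03 (adjusted p = 0.941). Xiap was detected on 0 of 5 PVP75 arrays and Diablo on 1.

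Neither citrate-coated particle gave a call among the 6 genes against control, where limma called 0.036% of probes for citrate10 and 0% for citrate75. At an unadjusted p under 0.05, citrate75 had 242 probes, Bcl2l1 among them. Cflar levels were 9.34, 9.31, 9.31, 9.27 and 9.25 in citrate10 and 9.33, 9.09, 9.41, 9.27 and 9.33 in citrate75, both overlapping with the control range of 9.14 to 9.30. The interval of its log2 fold change was -0.10 to 0.24 in citrate10 and -0.12 to 0.23 in citrate75. Groups without overlap occurred for 1.77% of probes in citrate10 against control. Phlda3 overlapped with control as well, at 8.44, 8.34, 8.30, 8.66 and 8.39 in citrate10 and 8.69, 8.26, 8.44, 8.35 and 8.78 in citrate75. Bcl2l1 had its highest levels in citrate75, at 7.24, 7.10, 7.32, 7.11 and 7.29, against 6.87, 7.10, 7.08 and 6.97 in control. The groups were apart by a narrow margin, as for 3.75% of probes, and the log2 fold change of 0.19 did not pass (adjusted p = 0.572, limma). Aifm1 had its lowest mean there, at 7.11, 6.77, 7.33, 7.40 and 7.48 in citrate75 against 7.30 to 7.54 in control. Its log2 fold change of -0.23 did not pass (adjusted p = 0.647, limma).

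**Figure D2:**
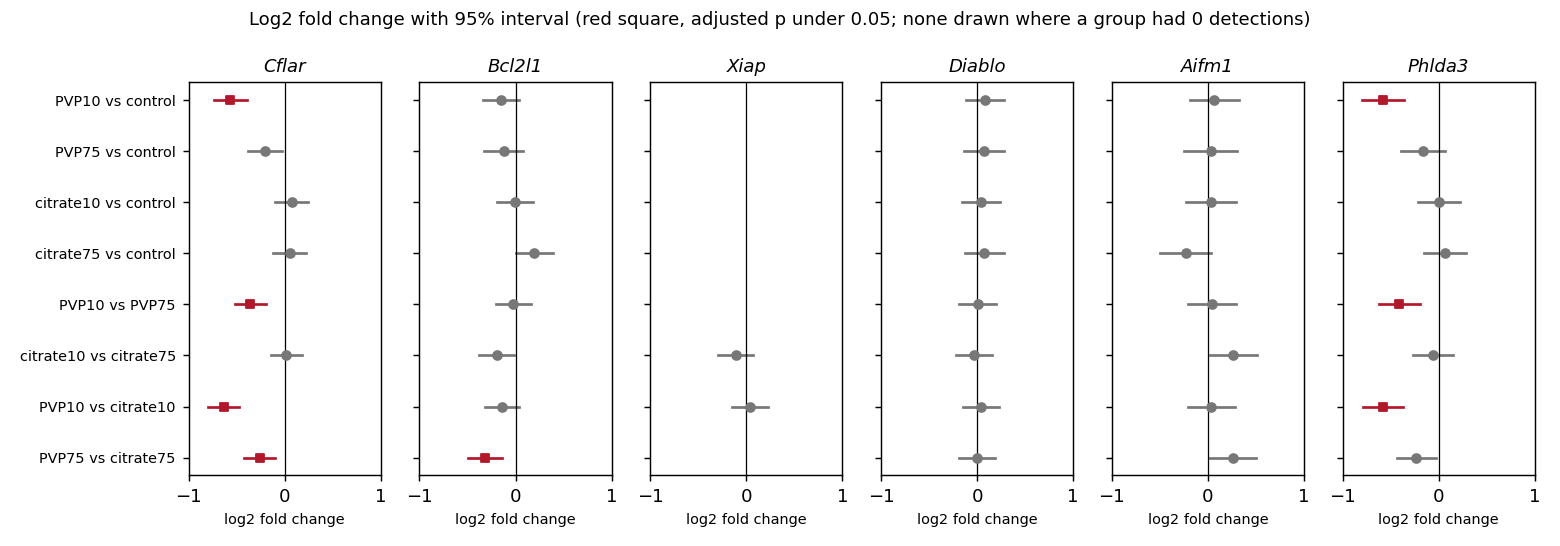
Log2 fold change of the 6 genes in each comparison of a pair of groups (rows), with bars for the 95% confidence interval, red squares where the adjusted p was under 0.05 and grey circles elsewhere. No point is drawn for Xiap where a group had 0 detections. Cflar and Phlda3 are lower in PVP10 than in control, PVP75 and citrate10, and the points of citrate10 and citrate75 against control are all grey.

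Within the PVP coating, both genes were lower at 10 than at 75 nm. Cflar differed by a log2 fold change of -0.36 with a standard error of 0.0802 (adjusted p = 0.00108, limma), and all 5 PVP10 arrays, at 8.50 to 8.73, lay below the 5 PVP75 arrays, at 8.86 to 9.08. Phlda3 differed by -0.41 with a standard error of 0.104 (adjusted p = 0.00335, limma), with 7.70 to 7.996 in PVP10 and 8.13 to 8.39 in PVP75. In this comparison 28% of probes were called, 15% were called lower, and 16.7% had groups without overlap. Before correction the deposited signals of both genes overlapped, with Cflar at 407 to 542 in PVP10 and 451 to 862 in PVP75. Chip 2 held 1 PVP75 array. Cflar was not called within either chip (-0.296, adjusted p = 0.157, and -0.409, adjusted p = 0.064, limma), and Phlda3 was called on chip 1 (-0.533) and not on chip 2 (-0.294, adjusted p = 0.233).

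Within the citrate coating, 0 of the 6 were called between 10 and 75 nm by limma, where 0.144% of probes were called and 2.63% had groups without overlap. Bcl2l1, at a log2 fold change of -0.20 (adjusted p = 0.317), and Aifm1, at 0.26 (adjusted p = 0.323), had an unadjusted p under 0.05, as had 381 of 2774 probes. For Cflar the log2 fold change was 0.02 with an interval from -0.14 to 0.18, and for Phlda3 it was -0.06 with an interval from -0.27 to 0.15.

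Coatings were also compared at matched size, dose and time. At 10 nm, Cflar was lower with PVP than with citrate by a log2 fold change of -0.64 with a standard error of 0.0773 (adjusted p = 8.96e-08, limma), and Phlda3 by -0.58 with a standard error of 0.1 (adjusted p = 2.23e-05). Neither gene overlapped between the groups, as was so for 30% of probes, and 41.7% of probes were called, 20.4% higher and 21.4% lower. The other 4 genes had log2 fold changes between -0.14 and 0.04 and were not called. The PVP10 arrays enter each of the comparisons in which these genes fell furthest, so those comparisons share samples.

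At 75 nm, Cflar and Bcl2l1 were called, both lower with PVP, where 14.1% of probes were called, 6.63% higher and 7.5% lower. Cflar had 9.08, 9.03, 9.08, 8.86 and 9.08 in PVP75 and 9.33, 9.09, 9.41, 9.27 and 9.33 in citrate75, without overlap, as for 7.86% of probes. Its deposited signals, before correction, overlapped, at 451 to 862 in PVP75 and 480 to 855 in citrate75. Its log2 fold change was -0.26 with a standard error of 0.078 (adjusted p = 0.0226, limma). Bcl2l1 had 6.99, 6.78, 6.87, 6.72 and 7.15 in PVP75 and 7.24, 7.10, 7.32, 7.11 and 7.29 in citrate75, and 1 PVP75 array reached into the citrate75 range. Its log2 fold change was -0.32 with a standard error of 0.0873 (adjusted p = 0.0142, limma). Aifm1 went the other way, higher with PVP by 0.26, and was not called (adjusted p = 0.156, limma).

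Both calls at 75 nm were lost when single arrays were left out, with only the groups compared (Cflar -0.248, adjusted p = 0.114, and Bcl2l1 -0.322, adjusted p = 0.0673, limma) and within each chip. Without PVP75 replicate 2 the Bcl2l1 value was -0.286 (adjusted p = 0.0506, limma). Cflar lost its call without PVP75 replicate 4 (-0.22, adjusted p = 0.0678) and without citrate75 replicates 1, 3 or 5 (-0.251, -0.23 and -0.251, adjusted p = 0.0571, 0.0572 and 0.0617). Phlda3, at -0.23 (adjusted p = 0.133), was called when citrate75 replicate 2 was left out (-0.309, adjusted p = 0.0444). Within the chips, Cflar was at -0.225 and -0.309 and Bcl2l1 at -0.277 and -0.438. Cflar was also lost with median scaling (-0.184, adjusted p = 0.193), and Bcl2l1 was at -0.204, still called, without background correction.

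The test of whether the size effect differed between coatings called Cflar alone among the 6. The difference between 10 and 75 nm was -0.36 with PVP and 0.02 with citrate, and the interaction was -0.37 with a standard error of 0.11 (adjusted p = 0.0198, limma), where 15.2% of probes were called, 7.07% higher and 8.11% lower. For Phlda3 the size effects were -0.41 with PVP and -0.06 with citrate, and the interaction of -0.35 did not pass (adjusted p = 0.106, limma). The Cflar interaction was -0.341 on chip 1 and -0.373 on chip 2, neither called, and with median scaling in place of quantile normalisation it was not called either (adjusted p = 0.0583).

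Over the 5 groups, mean log2 Cflar rose in the order PVP10 (8.66 ± 0.0986, SD), PVP75 (9.03 ± 0.0976), control (9.23 ± 0.0753), citrate75 (9.29 ± 0.119) and citrate10 (9.30 ± 0.0339). Phlda3 rose in the order PVP10 (7.85 ± 0.138), PVP75 (8.29 ± 0.123), control (8.41 ± 0.142), citrate10 (8.43 ± 0.142) and citrate75 (8.51 ± 0.222). In both orders PVP10 and PVP75 were the only neighbours whose difference passed the test. Mean Bcl2l1 ran from 6.86 ± 0.104 in PVP10 to 7.21 ± 0.103 in citrate75, and mean Aifm1 from 7.22 ± 0.289 in citrate75 to 7.52 ± 0.201 in PVP10, with no tested neighbours called. The group means of Xiap stayed between 4.70 and 4.84 and those of Diablo between 4.80 and 4.86. For Xiap, chip 2 exceeded chip 1 by 0.22 on the log2 scale (adjusted p = 0.0795, limma), more than the whole range of its group means.

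**Figure D3:**
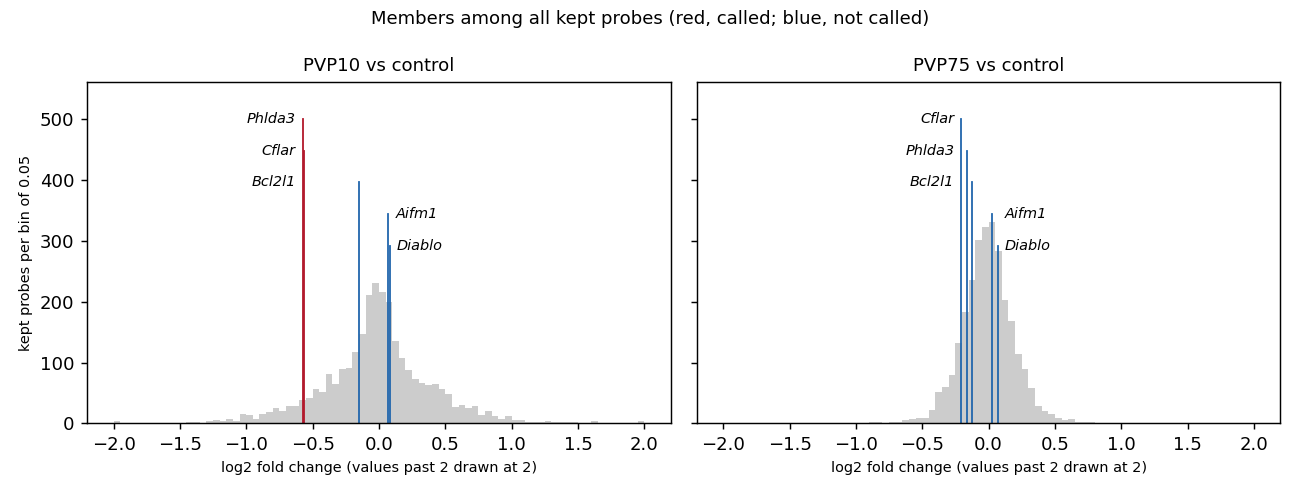
Histograms of the log2 fold changes (x axis) of all 2774 tested probes, counted in bins on the y axis, for PVP10 and PVP75 against control, with lines for the members (red, called; blue, not called; the line height carries no value; Xiap, with 0 control detections, is not drawn). Cflar and Phlda3 lie in the lower tail for PVP10, where 8.76% and 8.33% of probes have lower values.

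As a description over the 24 arrays, the levels of Cflar and Phlda3 had a Pearson r of 0.807, and r was 0.00958 once group and chip means were taken out. Cflar and Bcl2l1 had r = 0.651, and 0.529 with those means taken out. Among 1935 named genes, the levels most like that of Cflar were those of Ccnd1 (cyclin D1, which drives entry into the cell cycle; r = 0.954), Mxd3 (a partner of MAX that opposes MYC; r = 0.945) and Cav1 (the coat protein of caveolae; r = 0.942). With group and chip means taken out, r was 0.662 for Ccnd1, 0.314 for Mxd3 and 0.313 for Cav1. Closest to Phlda3 were Hsd17b8 (a dehydrogenase of mitochondrial fatty acid synthesis; r = 0.905), Rhbdf1 (an inactive rhomboid protein; r = 0.893) and Tmem147 (r = 0.886). For these, r was 0.623, 0.538 and 0.505 with those means taken out. The best matches of the others were weaker, with Ppp1ca at 0.755 for Bcl2l1, Tie1 at 0.732 for Xiap, Mgst2 at 0.693 for Aifm1 and Ndufv3 at 0.673 for Diablo. Without group and chip means, r was 0.298 for Ppp1ca, 0.569 for Tie1, 0.589 for Mgst2 and 0.612 for Ndufv3. Tie1 and Ndufv3, with mean log2 levels of 4.81 and 4.78, lay near background, as did Xiap and Diablo. All these values share arrays, groups and normalisation.

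The setting of the members was read from lists of 198 other genes of cell death and of the AKT and NF-kappaB pathways. The array named 154 of them, and 19 were detected often enough to be tested. Of the 135 others, 131 were detected on 0 arrays, among them the pro-death Bax and Bak1 and the protective Bcl2 and Mcl1. Among the 22 genes of the BCL2 family list that the array named, Bcl2l1 alone was measured. That list is not complete. Bcl2l12, which is outside it, was tested and not called in PVP10 against control (log2 fold change -0.25, adjusted p = 0.132, limma). Phlda3 was likewise the only 1 measured of the 24 listed p53 targets that the array named. The p53 list is not complete either, so other p53 targets may be among the tested probes. In PVP10 against control 2 of the 19 genes rose, 5 fell and 12 were not called. Their median log2 fold change was -0.17, beside -0.01 over all tested probes, and the share called again stands beside 41.5% of all probes. The lists were chosen with earlier results of these data known, so these medians are a description only.

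Of the 4 tested AKT pathway genes besides the members, 2 fell, 1 rose (Phlda1) and 1 was not called (Akt2, adjusted p = 0.184, limma). These calls are for PVP10 against control, where 20.1% of all probes were called higher and 21.4% lower. The largest fall among the 19 genes was in the AKT list. Pdpk1, the kinase that phosphorylates AKT at the membrane, had a log2 level of 7.60 ± 0.204 (SD, n = 5) in PVP10 and 8.63 ± 0.273 (n = 4) in control, a log2 fold change of -1.03 (SE 0.158, adjusted p = 4.1e-06, limma). Akt1 had 5.00 ± 0.179 in PVP10, detected on 2 of 5 arrays, and 5.32 ± 0.183 in control, detected on 4 of 4. Its log2 fold change was -0.35 (adjusted p = 0.0224, limma), and the call was lost without PVP10 replicate 3 (-0.305, adjusted p = 0.0674) or control replicate 3 (-0.306, adjusted p = 0.0898), with median scaling (-0.255), with no chip term (-0.321), with no detection filter and within each chip. Without background correction the Akt1 value was -0.12. Pdpk1 was also the 1 gene of the 19 called in PVP75 against control, where 5.3% of all probes were called, at -0.59 (adjusted p = 0.0329, limma). That call was lost without PVP75 replicate 2 (-0.377), 4 (-0.587) or 5 (-0.573), or control replicate 1 (-0.597) or 4 (-0.468), with only the groups compared, with no detection filter and on chip 1 alone (-0.197).

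The other falls were in Bag6, a chaperone of newly made membrane proteins that was first described as a regulator of apoptosis, in Casp6, an executioner caspase, and in Traf2, an adaptor of tumour necrosis factor receptors. Bag6 had a log2 level of 9.04 ± 0.175 in PVP10 and 9.80 ± 0.24 in control, a log2 fold change of -0.76 (SE 0.12, adjusted p = 7.16e-06, limma). Casp6 had 6.30 ± 0.4 in PVP10 and 6.97 ± 0.209 in control, with a log2 fold change of -0.68 (SE 0.146, adjusted p = 0.000381). Traf2 had 5.75 ± 0.227 in PVP10 and 6.20 ± 0.11 in control, with a log2 fold change of -0.46 (SE 0.131, adjusted p = 0.00606). Without background correction the values were smaller, at -0.383 for Casp6 and -0.21 for Traf2, and the Traf2 call was lost with no detection filter (adjusted p = 0.0561) and on chip 1 alone. Casp2, the other caspase tested, was not called.

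The rises were in Phlda1 and Chuk. Phlda1, a relative of Phlda3 by its pleckstrin homology-like domain, moved the opposite way, with a log2 level of 6.06 ± 0.247 in PVP10 and 5.12 ± 0.19 in control. Its log2 fold change was 0.94 (SE 0.128, adjusted p = 6.29e-07, limma), and it was detected on 5 of 5 PVP10 arrays and 3 of 4 control arrays. Without background correction the Phlda1 value was 0.381, still called, and on chip 1 alone it was 0.677 (adjusted p = 0.114). Chuk, the alpha catalytic subunit of the kinase that activates NF-kappaB, had 7.14 ± 0.0697 in PVP10 and 6.89 ± 0.0914 in control, with a log2 fold change of 0.27 (adjusted p = 0.0313, limma). Its call was lost without PVP10 replicate 2, 4 or 5 (0.259, 0.265 and 0.239) or control replicate 1 or 2 (0.254 and 0.229), with no chip term (0.244), with no detection filter and within each chip. Without background correction it was 0.172.

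**Figure D4:**
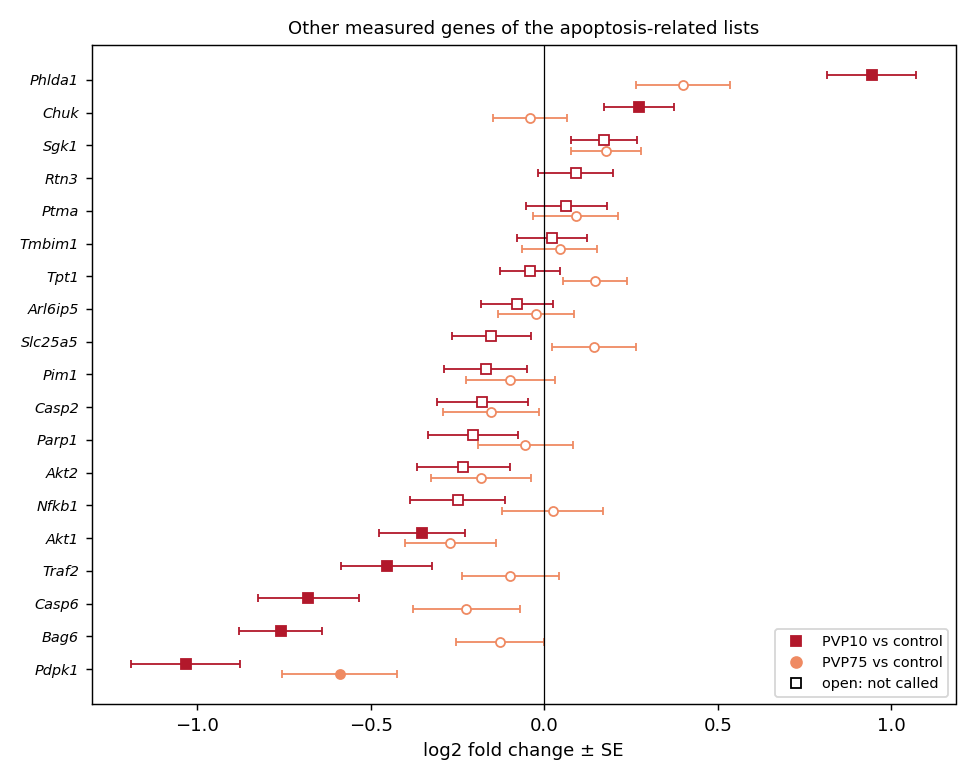
Log2 fold changes with standard errors of the 19 tested genes from the surrounding lists, in PVP10 against control (squares) and PVP75 against control (circles), filled where the adjusted p was under 0.05. Of the filled squares, Phlda1 and Chuk are above 0, and Pdpk1, Bag6, Casp6, Traf2 and Akt1 are below it, while Pdpk1 has the only filled circle. No circle is drawn for Rtn3, which was detected on 0 of 5 PVP75 arrays.

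The PVP10 arrays also enter the comparisons with PVP75 and citrate10, which therefore share samples with the one against control. Against citrate10, 2 of the 19 genes rose (Phlda1 and Chuk) and 7 fell (Pdpk1, Bag6, Casp6, Traf2, Akt1, Nfkb1 and Parp1), where 20.4% of all probes were called higher and 21.4% lower. Nfkb1, a subunit of NF-kappaB, had a log2 fold change of -0.51 (adjusted p = 0.00184, limma), and Pdpk1 one of -0.75 (adjusted p = 0.000127). Parp1, a substrate of caspases, was at -0.32 (adjusted p = 0.0341, limma), and its call was lost without PVP10 replicate 2, 3 or 4 (-0.251, -0.314 and -0.295) or citrate10 replicate 3, 4 or 5 (-0.283, -0.318 and -0.262). The Akt1 call there (-0.33, adjusted p = 0.0221, limma) was lost without PVP10 replicate 2 or 3 (-0.297 and -0.285) or citrate10 replicate 4 or 5 (-0.289 and -0.311). Over all 36 settings, Parp1 lost its call in 10, Akt1 in 8 and each of Nfkb1, Phlda1 and Traf2 on chip 1 alone. The values of Nfkb1 and Parp1 were -0.28 and -0.194 without background correction.

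Against PVP75, Phlda1 and Chuk rose and 5 of the 19 fell, where 13% of all probes were called higher and 15% lower, with Bag6 at a log2 fold change of -0.63 (adjusted p = 0.000132, limma) and Casp6 at -0.46 (adjusted p = 0.0162). The Bag6 call held in all 36 settings. Casp6 lost its call in 4 of them, with no detection filter (adjusted p = 0.147), with only the groups compared (-0.417, adjusted p = 0.0744) and within each chip, and was at -0.246 without background correction. Phlda1, at 0.54, lost it within each chip. Chuk lost it in 5 settings, among them without PVP10 replicate 5 (0.268). Pdpk1, at -0.44, lost it without PVP10 replicate 2 or 5 (-0.451 and -0.323) or PVP75 replicate 1 or 3 (-0.388 and -0.359), and its direction turned on chip 2 alone, at 0.173, against -0.738 on chip 1. Traf2, at -0.36, lost it without PVP10 replicate 1, 3 or 5 (-0.357, -0.352 and -0.234) or PVP75 replicate 2 or 5 (-0.383 and -0.265), and in 14 settings in all. Slc25a5, an adenine nucleotide carrier of the inner mitochondrial membrane, lay at the threshold (-0.30, adjusted p = 0.0492, limma), and its call was lost without most single arrays, at values between -0.297 and -0.255, and with median scaling (-0.0791). Against control, citrate10 and citrate75 gave 0 calls among the 19 by limma.

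Between the coatings at 75 nm, 3 of the 19 were lower with PVP and 1 was higher, where 7.5% of all probes were called lower and 6.63% higher. Traf2 had a log2 fold change of -0.54 (adjusted p = 0.00429, limma), Akt2 of -0.47 (adjusted p = 0.0139) and Akt1 of -0.39 (adjusted p = 0.0233), while Slc25a5 was at 0.34 (adjusted p = 0.035). Traf2 lost its call on chip 2 alone (-0.39) and in no other setting, and was at -0.29 without background correction. The Akt2 call was lost without citrate75 replicate 1 (-0.408), with no detection filter and within each chip, and its value was -0.213 without background correction. That of Akt1 was lost without PVP75 replicate 1, 3 or 4 (-0.293, -0.358 and -0.36) or citrate75 replicate 1 or 5 (-0.379 and -0.349). That of Slc25a5 was lost without PVP75 replicate 2, 4 or 5 (0.317, 0.329 and 0.299) or citrate75 replicate 1, 2 or 3 (0.328, 0.307 and 0.284). Over all 36 settings Akt1 and Slc25a5 lost their calls in 11 each.

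The size effect differed between the coatings for 4 of the 19 genes, where 15.2% of all probes were called, with an interaction of -0.63 for Casp6, -0.55 for Slc25a5, -0.53 for Bag6 and 0.50 for Phlda1 (adjusted p = 0.0279, 0.0142, 0.0249 and 0.0475, limma). The Slc25a5 call held on leaving out each array in turn and was lost with median scaling (-0.422, adjusted p = 0.0966), with array weights (-0.393), with no detection filter and within each chip. Bag6 lost its call without PVP10 replicate 2 (-0.451), citrate10 replicate 4 (-0.456) or citrate75 replicate 5 (-0.487), and in 7 settings in all. Casp6 lost it without citrate10 replicate 3 or 5 (-0.558 and -0.597) or citrate75 replicate 1 or 5 (-0.577 and -0.576), and in 6 settings in all, and was at -0.352 without background correction. Phlda1, at the threshold, lost it in 21 settings, most of them leaving out a single array, at values between 0.406 and 0.509.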

How the data were processed

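For each probe on each of 24 arrays of RBEC4 cells, the deposited signal table gives, per its headers and as deposited, a linear bead intensity with its detection p-value. Its intensity values are neither background-subtracted nor normalised, as read from the values, and the deposited detection p-values run in steps of 1 in 825. The submitters' processing notes name GenomeStudio 2011.1, and no other step is stated in the sources used here. A second deposited table of intensity values, already quantile normalised by the authors as read from its columns, served as an alternative. Columns were tied to samples through the chip position given in the labels, and 0 columns went unused.

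Background was corrected with normexp and an offset of 16, with negative controls inferred from the detection p-values, in limma 3.58.1 under R 4.3.3, followed by quantile normalisation and log2. Probes with a detection p under 0.01 on at least 4 arrays were kept, 12.3% of the array. A linear model with 5 groups and the chip was fitted to all 24 arrays (lmFit, eBayes), and p-values were adjusted by Benjamini-Hochberg over 2774 probes within each of 9 comparisons. A call is an adjusted p under 0.05. Group means are not adjusted for the chip and fold changes are. The steps were tested on simulated data. Where a gene had more than 1 kept probe the brightest stood for it.

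Names came from the platform annotation, which names 13793 probes. The Entrez identifiers of 13752 matched RefSeq's gene table for GRCr8, and 0 symbols changed. Promoter windows came from RefSeq on GRCr8, where 5 of the 6 symbols were found and Xiap was not. The members and lists were chosen with earlier results of these data known. All 6 members are named, and from each list up to 4 genes called in PVP10 against control and up to 2 called in each other comparison, besides the 3 genes most correlated with a member. Bax, Bak1, Bcl2, Mcl1, Bcl2l12, Casp2, Cycs, Vdac1, Dad1 and the marker genes are named outside that rule. Alternatives were the offset, background method, scaling, detection filter, chip term, array weights, the samples in the fit, a replicate block, each chip alone and each array left out. The same alternatives for the list genes were added after seeing the data.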

Additional observations from a re-analysis of the deposited data

Results flagged for a closer look

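Cflar stood apart on PVP75 replicate 4, at a log2 level of 8.856 where the other 4 PVP75 arrays lay between 9.029 and 9.081. The gap to its nearest neighbour was 0.769 of the group's range, above Dixon's critical value for 5 samples. The top of that range is a tied value. PVP75 replicates 1, 3 and 5 all stood at 9.081 after normalisation, from deposited signals of 608, 491 and 862. What the ties add to the ratio was not tested. Diablo stood apart on PVP75 replicate 2, at 5.054 against 4.676 to 4.775 on the other arrays of that group, with a gap of 0.736 of the range. Across 6 genes and 5 groups 30 such tests were made, and chance flags about 1 group in 20. Cflar was also marked because its size effect differed between the coatings, with an interaction of -0.374 on the log2 scale between the PVP and citrate particles (limma).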

How the results depend on the processing

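Each result was recomputed under 36 settings, 24 leaving out 1 array each, 2 using 1 chip alone and 10 others. Of 1944 results for the members, 1825 kept their direction and their side of the threshold, 19 lost a call, 1 gained one, 99 uncalled values changed sign or moved, and 0 calls reversed. In PVP10 against control the 2 calls held on leaving out each array and in all settings but chip 1 alone, which had 1 call and a single control array, assumed to vary like the other groups. The same 2 genes were called against citrate10 in all 36 settings. In PVP10 against PVP75 there was 1 call on chip 1 and 0 on chip 2. In PVP75 against citrate75 the 2 calls became 1 with median scaling, 0 with only the groups compared, 0 on chip 1, 0 on chip 2 and 1 to 3 on leaving out arrays. The interaction call became 0 with median scaling, 0 on chip 1 and 0 on chip 2. Of the genes in the lists, Pdpk1 in PVP10 against PVP75 reversed on chip 2 alone, at 0.173 (adjusted p = 0.59), where PVP75 had 1 array. The causes were not tested, though the chips and the narrower fit hold fewer arrays. Over all probes, calls in PVP75 against control were 147, but 46 with only the groups compared, 71 with no detection filter, 74 without control replicate 3, 86 without control replicate 4 and 211 at most. Array weights gave 13 calls in citrate75 against control, in place of 0. In citrate10 against citrate75, 4 calls became 1 to 71 over the settings. With no detection filter PVP75 against citrate75 had 205 calls in place of 392 and the interaction 238 in place of 421. For PVP10 against control, 1152 probes were called and 367 on chip 1 alone, and for PVP10 against PVP75 776 were called, 377 on chip 1 and 349 on chip 2. Of the 19 list genes 7 were called in PVP10 against control, and 4 with no detection filter. Replicate numbers were tested as a block although the labels tie them to nothing. Residuals of arrays with the same number correlated between -0.169 and 0.262, and 4 of 24 arrays correlated best with one of their own number. With the replicate block the counts of called members were those given above, 2 in PVP10 against control among them. With median scaling the median log2 fold change of all probes in PVP10 against control was 0.0798, where the main fit had -0.011. Signal over background limits Xiap and Diablo, detected on few arrays.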
